A study of Homo sapiens with 12 samples.

Results

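The genes that encode collagen chains, laminin chains and integrin subunits were followed in 501Mel melanoma cells under 6 treatments. A gene was included when its symbol had the form of COL, a number, A and a number, of LAM, A, B or C and a number, or of ITGA or ITGB and a number, with or without a closing letter. Of 56638 gene symbols counted, 76 met this rule, with 44 collagen genes, 12 laminin genes and 20 integrin genes. Integrin subunits named only by a letter, such as ITGAV, lie outside it. Enough counts to be tested were found for 49 of the 76 genes, made up of 24 collagen, all 12 laminin and 13 integrin genes.

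501Mel is an established BRAF-V600E human melanoma cell line, so all 6 groups share this line and its mutation, and nothing in the labels says that the replicates came from separate cultures. Treatment lasted 48 h and consisted of DMSO as vehicle, 1 μM of the BRAF inhibitor Vemurafenib (Vem), 10 nM of TCDD, a dioxin that binds the Aryl hydrocarbon Receptor (AhR), 5 μM of Resveratrol (RSV), which the study uses as an AhR antagonist, RSV+Vem at the same doses, or RSV+TCDD. For RSV+TCDD the sample label gives 1 nM TCDD and the treatment protocol gives 10 nM. Each group holds 2 libraries, and p-values therefore measure the spread between these libraries, which may be technical.

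Collagens are triple helices that form fibrils, sheets and filaments around cells, and some span the cell membrane. Laminins are cross-shaped trimers of an alpha, a beta and a gamma chain that build basement membranes together with collagen IV. Integrins are receptors made of an alpha and a beta subunit that hold the cell to these proteins and signal through focal adhesions. In melanoma, contact with this matrix is known for its role in invasion and in tolerance of BRAF inhibitors.

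The libraries held between 8378655 and 25076925 counts on genes, and the 76 genes together held between 0.154% and 0.236% of them. CYP1A1, the classical AhR target, rose under TCDD exposure by 2.62 on the log2 scale (standard error 0.12), and with RSV alone, used in the study as an antagonist, by 1.55 (standard error 0.12, edgeR adjusted p = 4.36e-08). With RSV+TCDD it was lower than with RSV alone (-0.70, standard error 0.12). The effect of TCDD on it thus differed with and without RSV by -3.32 (standard error 0.17, edgeR adjusted p = 1.50e-09). The 6 melanocytic markers MITF, SOX10, MLANA, PMEL, TYR and DCT had counts in these libraries, with a summed level between 9356 and 34823 CPM (counts scaled to library size with TMM factors). Fibroblast, endothelial, keratinocyte and leukocyte markers (4 genes each) summed to no more than 38.9, 2.50, 0.253 and 0.405 CPM, and PECAM1 and KRT1 had no counts at all. RIN, a score of RNA integrity, ranged from 8.6 to 9.7, with both lowest values in the RSV+Vem libraries.

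AhR with its partner ARNT binds the core letters GCGTG of the xenobiotic response element (XRE), so the RefSeq promoters of the genes were searched for these letters on both strands, over the 250 bases before the start of each gene. A promoter entry was found for 55 of the 76 genes. The core was in 18 of them (32.7%), beside 32.2% of 35116 promoters of the same length. Of the 8 genes called with TCDD below, 7 had an entry and 2 held the core, ITGA6 and ITGB8. The windows of these 2 genes and of LAMB2 and LAMA5, which had the largest increases with Vem among called genes with a mean of at least 50 counts, are shown in GRCh38.p14, from 5′ to 3′ on the strand of the gene, with the core in capitals on whichever strand it was read. The ITGA6 window lies at chr2:172427086-172427335 on the plus strand with its core beginning 158 bases before the start, and the ITGB8 window at chr7:20330650-20330899 on the plus strand with cores 227 and 146 bases before it. The LAMB2 window lies at chr3:49133051-49133300 and the LAMA5 window at chr20:62367313-62367562, both on the minus strand and both without the core.
ITGA6: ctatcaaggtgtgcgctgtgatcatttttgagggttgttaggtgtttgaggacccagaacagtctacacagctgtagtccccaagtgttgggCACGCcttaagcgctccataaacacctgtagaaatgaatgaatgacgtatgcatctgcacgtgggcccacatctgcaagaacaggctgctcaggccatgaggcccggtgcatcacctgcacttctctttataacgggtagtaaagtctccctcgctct
ITGB8: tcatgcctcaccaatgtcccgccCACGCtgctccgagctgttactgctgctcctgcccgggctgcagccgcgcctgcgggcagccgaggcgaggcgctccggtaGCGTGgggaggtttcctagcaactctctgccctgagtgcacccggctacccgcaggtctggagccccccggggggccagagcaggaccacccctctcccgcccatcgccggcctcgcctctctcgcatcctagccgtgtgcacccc
LAMB2: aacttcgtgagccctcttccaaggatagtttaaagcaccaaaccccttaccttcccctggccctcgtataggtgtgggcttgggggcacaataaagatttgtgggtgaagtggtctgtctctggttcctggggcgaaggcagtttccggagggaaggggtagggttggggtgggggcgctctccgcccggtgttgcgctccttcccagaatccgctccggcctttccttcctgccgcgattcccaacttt
LAMA5: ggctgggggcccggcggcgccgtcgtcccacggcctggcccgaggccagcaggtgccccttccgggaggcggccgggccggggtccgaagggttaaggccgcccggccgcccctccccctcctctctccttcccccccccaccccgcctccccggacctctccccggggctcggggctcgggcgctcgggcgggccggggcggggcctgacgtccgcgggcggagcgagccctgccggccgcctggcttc
The letters of an AP-1 site, TGANTCA, were in 1 of the 55 promoters (6.57% of all promoters), those of the E-box CACGTG in 1 (6.34%) and those of CATGTG, part of the M-box, in 2 (9.42%). A match of letters is a description of the sequence and does not show binding.

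The most abundant of these genes in vehicle were laminins and integrins. Per kilobase of annotated exons, so that genes can be compared, LAMC1, the gamma chain shared by most laminins, stood highest at 79.4 CPM per kb. It was followed by the integrin subunits ITGA9 (33.0), ITGA7 (22.2), ITGB1 (19.5) and ITGA6 (18.2), and by LAMB2 (17.4) and LAMA1 (15.2). The highest collagen was COL9A3 at 14.2 CPM per kb, a chain of the fibril-associated collagen IX, followed by COL6A1 (1.79), COL19A1 (1.16), COL6A2 (0.785) and COL18A1 (0.749). The basement membrane chains COL4A1 and COL4A2, which lie head to head on chromosome 13 (GRCh37, 110801310 to 110959504 on the minus strand and 110958159 to 111165556 on the plus strand), had only 3 to 11 counts per vehicle library. ITGB1 is the beta partner of ITGA1, ITGA2, ITGA3, ITGA6, ITGA7 and ITGA9, and ITGB5, a partner of ITGAV, was at 11.3 CPM per kb.

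The threshold for a call in the tests below was an adjusted p of 0.05 in edgeR's quasi-likelihood test over 16080 genes. An exact permutation test of 2 libraries against 2 cannot go below p = 0.333, so the calls rest on the fitted model. The filter on low counts keeps a gene that is high in a single group, so rare genes among the 49 could pass through the group where they were high. The comparisons with vehicle share the vehicle libraries. In bulk RNA, fewer cells with a transcript and less transcript per cell cannot be told apart.

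**Figure D1:**
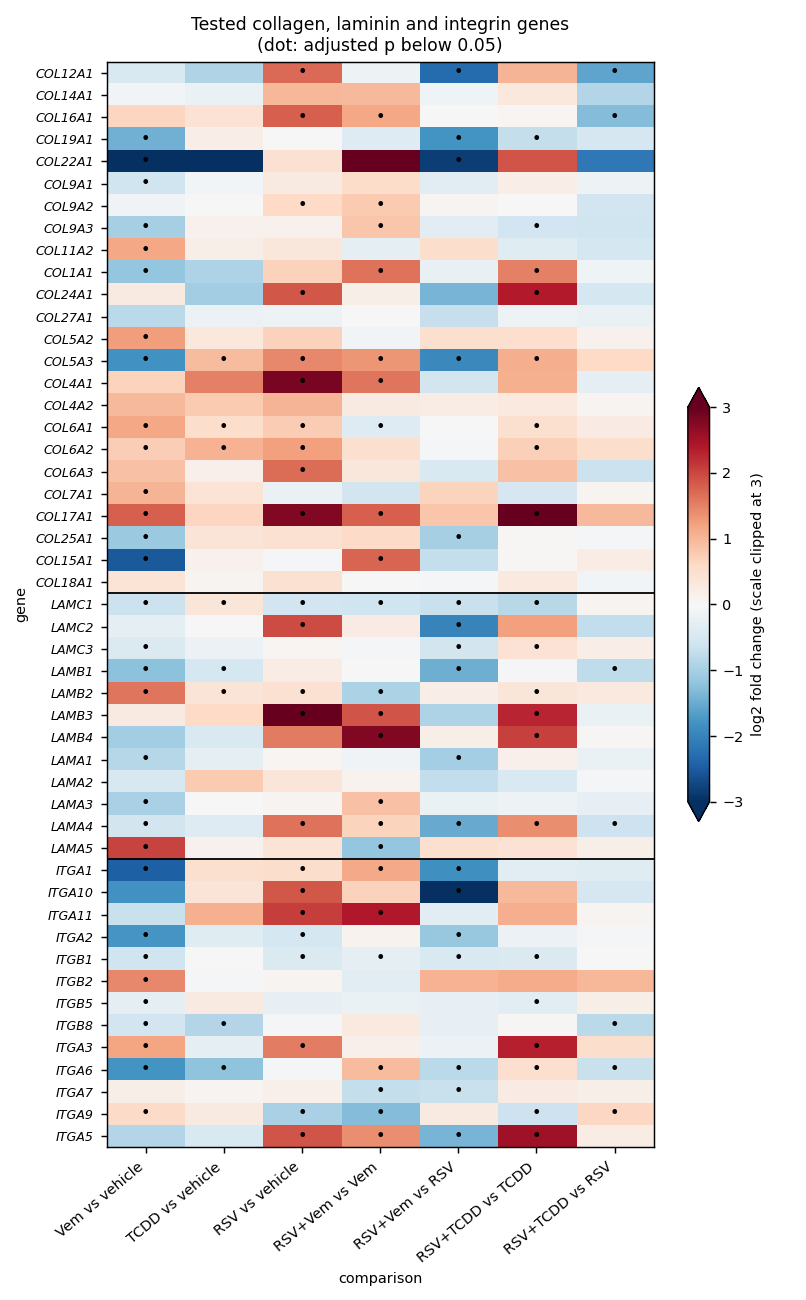
Log2 fold changes of the 49 tested genes (rows, grouped into collagens, laminins and integrins by black lines) in 7 comparisons (columns). Red is higher and blue is lower in the first group named, a dot marks a call, and the scale stops at 3. With Vem against vehicle 11 genes carried a dot on the higher side and 20 on the lower side.

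Exposure to Vem lowered more of these genes than it raised. Of the 49 tested genes, 20 fell and 11 rose relative to vehicle, where 26.9% of all tested genes fell and 25.5% rose. The median log2 fold change was -0.45 over the 49 genes and -0.03 over all genes. By family it was 0.09 for the 24 collagens, -0.51 for the 12 laminins and -0.60 for the 13 integrins. The fallers included the integrin subunits ITGA1, ITGA2 and ITGA6 and the laminin chains LAMA1, LAMB1 and LAMC1, and the risers included LAMA5, LAMB2, ITGA3 and COL6A1. Under scaling to the ERCC spike-ins the median of all genes was -0.68. With this scaling 16 of the genes were called lower and 1 higher, beside 22.5% and 1.21% of all genes. The summed level of the melanocytic markers was between 32655 and 34823 CPM in the Vem libraries and between 13868 and 14528 in vehicle, and its part in these differences was not tested.

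The laminin chains changed in opposite directions with Vem. LAMA1, an alpha chain of embryonic basement membranes, had 246 and 237 CPM in the vehicle libraries and 140 and 129 with Vem, a log2 fold change of -0.85 (standard error 0.10). LAMB1, the beta chain that joins it, had 79.5 and 74.9 CPM with vehicle and 32.1 and 34.0 with Vem (-1.22, standard error 0.11, edgeR adjusted p = 4.02e-08). LAMC1 had 647 and 695 CPM with vehicle and 431 and 425 with Vem (-0.65, standard error 0.09). No Vem library reached the vehicle libraries in any of these chains. LAMA5, the alpha chain found in most mature basement membranes (GRCh37, chromosome 20, 60883011 to 60942368), had 25.2 and 23.5 CPM with vehicle and 101 and 97.8 with Vem. This is a log2 fold change of 2.03 (standard error 0.24, edgeR adjusted p = 2.51e-05). LAMB2, the beta chain that replaces LAMB1 in many basement membranes (chromosome 3, 49158547 to 49170551), had 117 and 122 CPM with vehicle and 370 and 361 with Vem (1.61, standard error 0.10, edgeR adjusted p = 2.69e-10). For LAMA5 and LAMB2 the groups did not overlap. Under spike-in scaling LAMA5 was at 1.38 and called, and LAMB2 was at 0.96 and not called. Of the exonic length of LAMA5, 1.71% overlaps ADRM1 on the opposite strand, as does 1.61% of that of LAMB1 with DLD. Over the family, 2 of 12 laminin genes rose and 6 fell, beside 25.5% and 26.9% of all tested genes. Those that fell also included LAMA3, LAMA4 and LAMC3, by 0.98, by 0.54 and by 0.42 on the log2 scale.

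**Figure D2:**
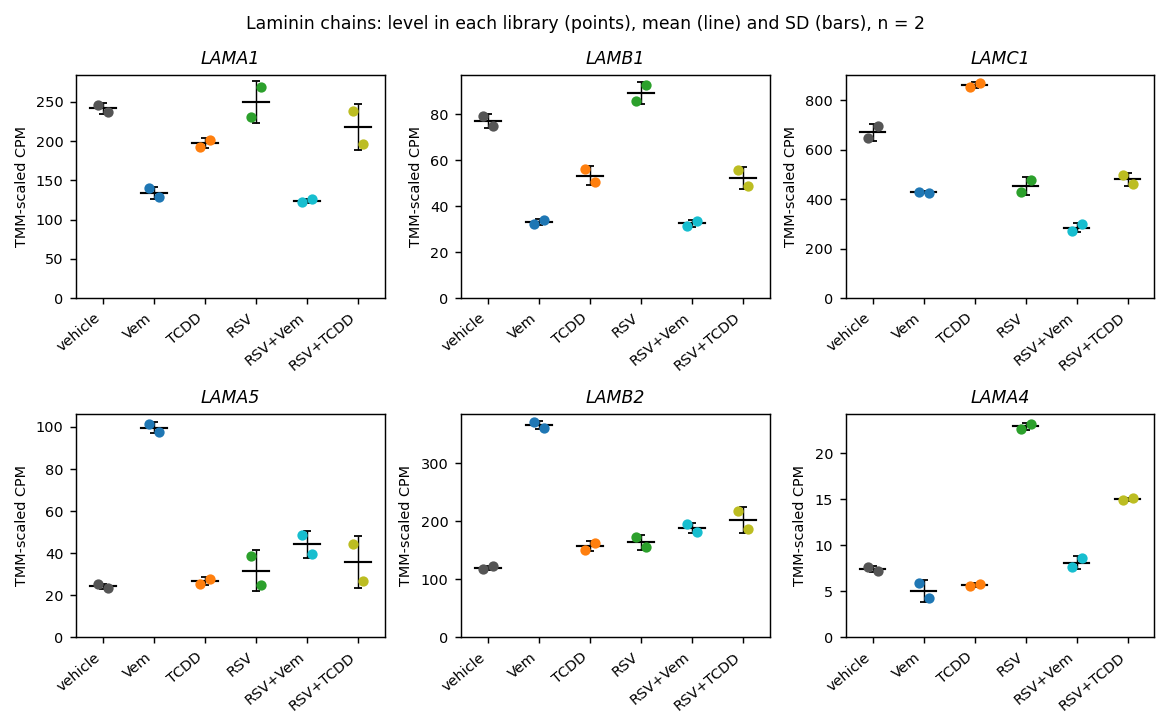
Level of 6 laminin chains (y axis, TMM-scaled CPM from 0) in the 12 libraries by treatment (x axis), with points for libraries, a line for the mean and bars for the SD of 2 libraries. LAMA1, LAMB1 and LAMC1 were lower with Vem than with vehicle, LAMA5 and LAMB2 were higher, and LAMA4 was highest with RSV (22.7 and 23.2 CPM).

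Ratios of these chains within a library need no scaling between libraries, and were formed after the values had been seen. Per length, LAMA5 stood to LAMA1 as 0.112 ± 0.003 (SD, n = 2) in vehicle and as 0.824 ± 0.025 with Vem. LAMB2 stood to LAMB1 as 4.21 ± 0.30 in vehicle and as 30.002 ± 1.795 with Vem. With RSV+Vem both ratios lay between those of vehicle and Vem, at 0.395 ± 0.065 and 15.6 ± 1.4. TCDD gave 0.149 ± 0.006 and 7.99 ± 1.06, RSV 0.144 ± 0.059 and 4.99 ± 0.66, and RSV+TCDD 0.179 ± 0.038 and 10.5 ± 0.2.

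The integrin subunits that bind collagen and laminin contained some of the largest decreases with Vem. ITGA1, the alpha subunit of a collagen receptor and a gene on the study's list of resistance genes (GRCh37, chromosome 5, 52083750 to 52255039), had 7.24 and 5.70 CPM with vehicle and 1.25 and 1.08 with Vem. Its log2 fold change was -2.46 (standard error 0.26, edgeR adjusted p = 3.70e-07). Of its exonic length, 2.69% overlaps PELO on the same strand. ITGA2, the alpha subunit of another collagen receptor, had 14.6 and 14.2 CPM with vehicle and 5.01 and 3.38 with Vem (-1.77, standard error 0.18). ITGA6, a laminin receptor subunit, had 116 and 127 CPM with vehicle and 36.1 and 34.4 with Vem (-1.79, standard error 0.12, edgeR adjusted p = 1.35e-09). These Vem libraries were below both vehicle libraries. ITGA3, which also binds laminin, had 2.18 and 2.35 CPM with vehicle and 5.15 and 5.23 with Vem (1.19, standard error 0.27). Under spike-in scaling ITGA3 was at 0.54 and not called. ITGA9, which binds tenascin and other ligands, had 260 and 285 CPM with vehicle and 425 and 385 with Vem (0.57, standard error 0.09), but -0.08 under spike-in scaling. ITGA7, another laminin receptor subunit, was not called with Vem (0.17, standard error 0.11), and 1.31% of its exonic length overlaps BLOC1S1 on the opposite strand. The shared partner ITGB1 fell by 0.60, ITGB8 by 0.57 and ITGB5 by 0.30 on the log2 scale. In all, 3 of 13 integrin genes rose with Vem and 6 fell, beside the same shares of all tested genes, 25.5% and 26.9%.

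**Figure D3:**
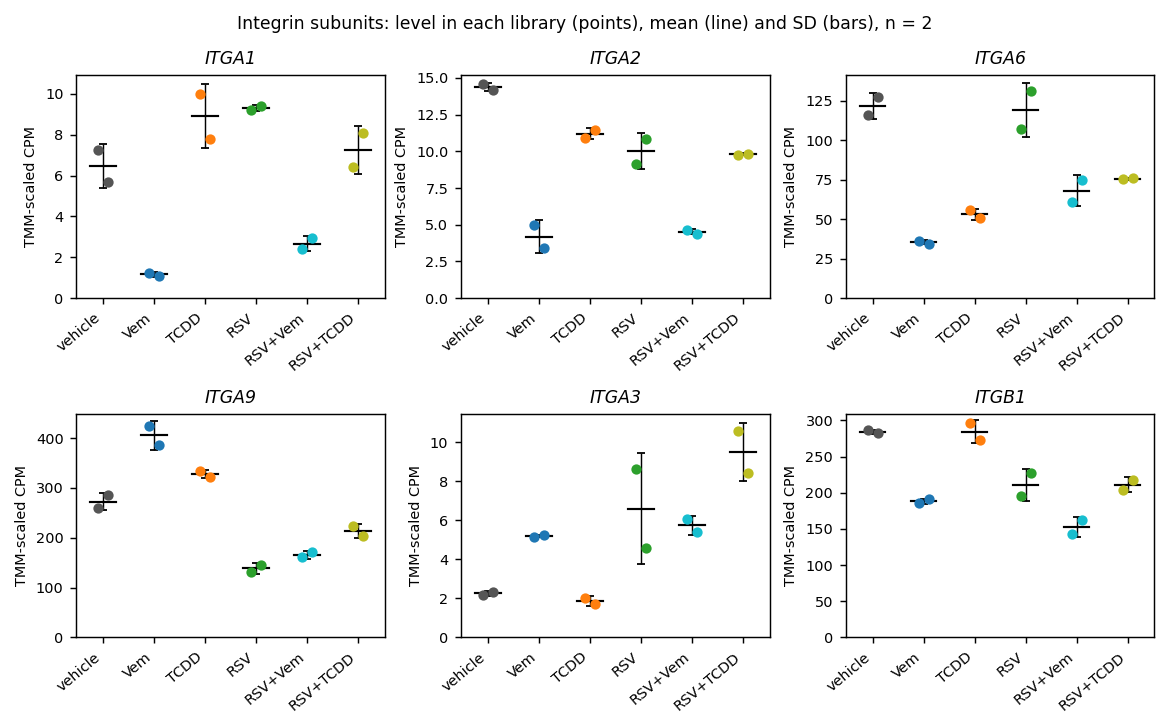
Level of 6 integrin subunits (y axis, TMM-scaled CPM from 0) in the 12 libraries by treatment (x axis), with points for libraries, a line for the mean and bars for the SD of 2 libraries. ITGA1 and ITGA2 were low in the 4 libraries with Vem, ITGA6 was lowest with Vem (36.1 and 34.4 CPM), and ITGA9 was lowest with RSV (131 and 146 CPM).

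With Vem 6 of 24 collagens rose and 8 fell, beside 25.5% and 26.9% of all tested genes. COL6A1, a chain of the beaded filament collagen VI, had 9.87 and 9.91 CPM with vehicle and 22.4 and 21.7 with Vem (log2 fold change 1.16, standard error 0.15, edgeR adjusted p = 3.47e-06). COL6A2, its partner chain, had 4.45 and 3.92 CPM with vehicle and 7.65 and 6.22 with Vem (0.74, standard error 0.20). COL11A2, a minor fibrillar chain, had 5.31 and 5.06 CPM with vehicle and 12.4 and 10.6 with Vem (1.15, standard error 0.20). In each of these the Vem libraries lay above the vehicle libraries. Under spike-in scaling COL6A1 was at 0.50, COL6A2 at 0.08 and COL11A2 at 0.50, and none of them was called. COL19A1, a fibril-associated chain of basement membrane zones, had 12.8 and 12.9 CPM with vehicle and 4.03 and 5.46 with Vem (-1.44, standard error 0.18). COL9A3 had 72.3 and 65.2 CPM with vehicle and 34.8 and 34.3 with Vem (-0.99, standard error 0.19). COL5A3, a minor fibrillar chain, had 2.58 and 1.62 CPM with vehicle and 0.556 and 0.615 with Vem (-1.81, standard error 0.36). All Vem libraries were below the vehicle libraries for these 3 genes. COL22A1 had 7 and 11 counts in the vehicle libraries and 0 in both Vem libraries, which is at least 3.65-fold lower when 3 counts over the group are taken as the floor. Of the 8 tested fibril-associated collagens 4 fell with Vem, and of the 3 tested collagen VI chains 2 rose. COL18A1 was not called (0.41, standard error 0.23), and 18.47% of its exonic length overlaps SLC19A1 on the opposite strand, as does 3.2% of that of COL9A3 with TCFL5.

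**Figure D4:**
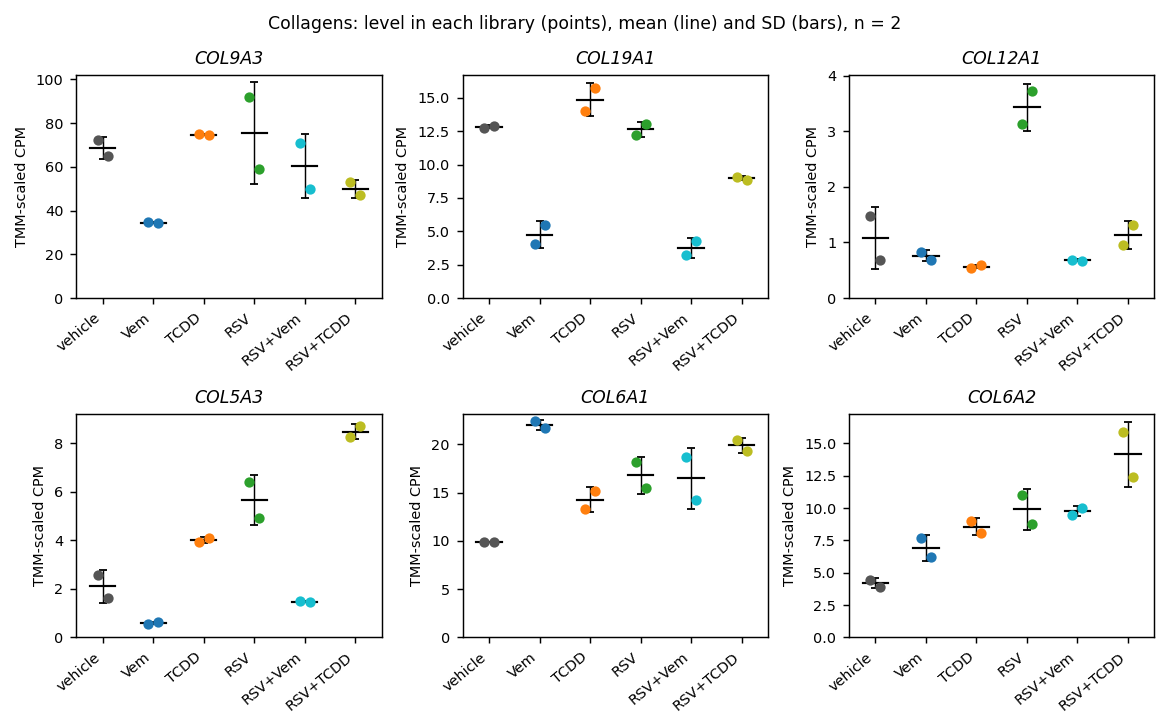
Level of 6 collagen chains (y axis, TMM-scaled CPM from 0) in the 12 libraries by treatment (x axis), with points for libraries, a line for the mean and bars for the SD of 2 libraries. COL9A3 and COL19A1 were lower with Vem than with vehicle, COL12A1 was highest with RSV (3.13 and 3.73 CPM), and COL5A3 was low with Vem and highest with RSV+TCDD (8.26 and 8.72 CPM).

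Fewer of these genes were called with TCDD than with Vem. Relative to vehicle 5 of 49 were higher and 3 lower, larger shares than the 4.72% and 2.01% of all tested genes. ITGA6 had 55.6 and 50.4 CPM with TCDD against 116 and 127 with vehicle, a log2 fold change of -1.20 (standard error 0.12, edgeR adjusted p = 6.76e-06). ITGB8, a beta subunit that pairs with ITGAV, had 9.51 and 9.22 CPM with vehicle and 5.87 and 4.19 with TCDD (-0.87, standard error 0.20). LAMB1 had 79.5 and 74.9 CPM with vehicle and 56.2 and 50.4 with TCDD (-0.53, standard error 0.11). For these 3 genes both TCDD libraries were below both vehicle libraries. COL6A2 had 9.03 and 8.09 CPM with TCDD against 4.45 and 3.92 with vehicle (1.04, standard error 0.19), and COL6A1 had 13.4 and 15.2 against 9.87 and 9.91 (0.52, standard error 0.15). COL5A3, which was lower with Vem, had 3.93 and 4.12 CPM with TCDD against 2.58 and 1.62 with vehicle (0.95, standard error 0.24). LAMC1 (853 and 871 CPM, log2 fold change 0.36) and LAMB2 (150 and 163 CPM, log2 fold change 0.39) were higher under TMM scaling, but -0.15 and -0.13 under spike-in scaling.

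These TCDD calls depended on single libraries and on scaling. In place of 8 genes, 4 were called without vehicle replicate 1, 5 without vehicle replicate 2, 3 without TCDD replicate 1 and 2 without TCDD replicate 2. Among the genes named, the ITGA6 call held in each of the 12 fits that left out a library, while that on COL6A1 was lost in 8 and that on COL5A3 in 3, where its log2 fold change was as low as 0.63 without vehicle replicate 2. COL6A2 lost its call without TCDD replicate 1, LAMB1 and ITGB8 lost theirs without TCDD replicate 2 (-0.46 and -0.67), and ITGB8 also without vehicle replicate 1. LAMC1 and LAMB2 lost theirs without vehicle replicate 1 and without either TCDD replicate, LAMB2 also without vehicle replicate 2. Under spike-in scaling, with a shift of -0.51 in the median of all genes, edgeR called 0 of the 49 genes, beside 0.0124% of all genes higher and 0.0498% lower. ITGA6, ITGB8 and LAMB1 were then at -1.70, -1.38 and -1.04, lower than under TMM scaling though not called. COL6A2, COL5A3 and COL6A1 were at 0.53, 0.44 and 0.02. The median over the 49 moved from 0.12 to -0.39. The summed level of the 4 fibroblast markers was 31.6 to 38.9 CPM with TCDD and 11.6 to 14.7 with vehicle, led by LUM with up to 38.2 CPM, and its part in these differences was not tested.

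Vem and TCDD were also compared directly. Relative to TCDD, 17 of the 49 genes were lower with Vem and 7 higher, beside 26.4% and 24.1% of all genes. ITGA1, with 10.0 and 7.79 CPM under TCDD against 1.25 and 1.08 under Vem, differed most in log2 fold change among the genes called (-2.94, standard error 0.26). COL5A3 followed at -2.76 (standard error 0.33). Relative to vehicle, ITGA1 was not called with TCDD (0.48, standard error 0.19). LAMA5 was higher with Vem by 1.91 (standard error 0.24), ITGA3 by 1.45 (0.29) and LAMB2 by 1.22 (0.10). ITGA6, lower than vehicle with either agent, was lower with Vem than with TCDD (-0.59, standard error 0.12). Under spike-in scaling the median of all genes was -0.17. With this scaling 7 genes were called lower and 1 higher, beside 7.46% and 2.21% of all genes.

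RSV raised more of these genes than it lowered. Relative to vehicle 19 of 49 rose and 4 fell, where 20.5% of all tested genes rose and 20.2% fell. The median log2 fold change was 0.45 over the 49 genes and -0.002 over all genes. By family it was 0.69 for the 24 collagens, 0.37 for the 12 laminins and 0.07 for the 13 integrins. Of the 24 collagens 10 rose and edgeR called 0 lower (0 by DESeq2, and 0 lower at an unadjusted p below 0.05). They included all 3 tested collagen VI chains, at 0.76 for COL6A1, 1.24 for COL6A2 and 1.68 for COL6A3. Of 4 tested collagen-binding integrin alpha subunits 3 rose, ITGA1, ITGA10 and ITGA11, by 0.53, 1.86 and 2.08, and ITGA2 was lower at -0.52. ITGA10 and ITGA11 had no more than 9 counts in a vehicle library. The summed melanocytic markers were between 9356 and 10134 CPM with RSV and between 13868 and 14528 with vehicle. The 4 endothelial markers summed to 1.42 to 1.93 CPM with RSV and to 0.283 to 0.607 with vehicle. The part of either marker list in these differences was not tested.

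Several of the increases with RSV were in genes with few counts in vehicle. LAMB3, the beta chain of the laminin of epithelial anchoring complexes, had 0.506 and 0.243 CPM with vehicle (10 and 6 counts) and 3.92 and 2.36 with RSV (log2 fold change 3.08, standard error 0.44, edgeR adjusted p = 3.51e-05). COL4A1 had 5 and 3 counts with vehicle and 20 and 28 with RSV (2.85, standard error 0.52), and its neighbour COL4A2 had 8 and 11 counts with vehicle, 19 and 12 with RSV and no call. ITGA5, the alpha subunit of the fibronectin receptor, had 1.21 and 0.850 CPM with vehicle and 4.28 and 3.36 with RSV (1.90, standard error 0.31). COL12A1, a fibril-associated collagen, had 1.47 and 0.688 CPM with vehicle and 3.13 and 3.73 with RSV (1.71, standard error 0.32). In each of these called genes the RSV libraries lay above the vehicle libraries. LAMA4, the alpha chain of vessel and adipose basement membranes, had 7.64 and 7.24 CPM with vehicle and 22.7 and 23.2 with RSV (1.63, standard error 0.15, edgeR adjusted p = 3.13e-07). ITGA3 had 8.62 and 4.57 CPM with RSV (1.53, standard error 0.26), and 1.01 without RSV replicate 1, which held the higher value.

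The 4 genes that fell with RSV included 3 of the most abundant. ITGA9 had 131 and 146 CPM with RSV against 260 and 285 with vehicle (-0.98, standard error 0.09, edgeR adjusted p = 4.38e-07). LAMC1 had 428 and 480 CPM with RSV against 647 and 695 (-0.56, standard error 0.09). ITGB1 had 195 and 227 CPM with RSV against 286 and 283 (-0.43, standard error 0.09). ITGA2 was lower with 9.16 and 10.9 CPM against 14.6 and 14.2, and lost its call without RSV replicate 1 (-0.40, edgeR adjusted p = 0.119). LAMB2 rose by 0.45, and LAMA1, ITGA6 and ITGA7 were not called. Under spike-in scaling, with a shift of -0.17, 3 genes were called higher and 0 lower by edgeR, beside 1.59% and 0.703% of all genes, and none of the 23 genes called under TMM scaling turned its sign. With at least 10 counts required in every library, 28 of the genes could be tested and 12 were called.

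Adding RSV to Vem raised 16 of the 49 genes relative to Vem alone and lowered 7, beside 19.1% and 18.7% of all genes. The lowered genes included LAMA5, LAMB2 and ITGA9, which were higher with Vem than with vehicle under TMM scaling. The comparisons of Vem with vehicle and of RSV+Vem with Vem share the Vem libraries. RSV alone had lowered ITGA9 relative to vehicle (-0.98) and raised LAMB2 (0.45). LAMA5 had 48.6 and 39.7 CPM with RSV+Vem against 101 and 97.8 with Vem (-1.16, standard error 0.23, edgeR adjusted p = 0.00225). LAMB2 had 195 and 182 CPM against 370 and 361 (-0.96, standard error 0.10, edgeR adjusted p = 5.07e-07). ITGA9 had 160 and 171 CPM against 425 and 385 (-1.29, standard error 0.09), ITGA7 147 and 131 against 239 and 216 (-0.70, standard error 0.11), and LAMC1 272 and 298 against 431 and 425 (-0.59, standard error 0.09). None of these RSV+Vem libraries reached a Vem library. Among the raised genes ITGA6 had 60.9 and 75.0 CPM against 36.1 and 34.4 (0.94, standard error 0.12, edgeR adjusted p = 1.13e-05). LAMA3, the alpha chain of the epithelial anchoring laminin, had 7.87 and 7.76 CPM against 4.45 and 4.07 (0.87, standard error 0.19). COL9A3 had 70.8 and 50.04 CPM against 34.8 and 34.3 (0.82, standard error 0.19), COL9A2 4.79 and 4.95 against 3.06 and 2.54 (0.79, standard error 0.22), and LAMA4 7.61 and 8.66 against 5.91 and 4.23 (0.66, standard error 0.18). ITGA1 had 2.39 and 2.92 CPM against 1.25 and 1.08 (1.15, standard error 0.31), below both vehicle libraries.

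The RSV+Vem libraries had the lowest RIN values, 8.7 and 8.6. The summed melanocytic markers were between 14636 and 15306 CPM with RSV+Vem and between 32655 and 34823 with Vem. The part of RNA quality and of these markers in the differences was not tested. Replicate 2 of RSV+Vem was also the shallowest library. In place of 23 genes, 13 were called without Vem replicate 2 and 13 without RSV+Vem replicate 1. COL9A2 and LAMA4 lost their calls without Vem replicate 2, LAMA4 at 0.44, and COL9A3 without RSV+Vem replicate 1, at 0.54. With spike-in scaling edgeR called 0 of the 49 genes in this comparison, beside 2.08% of all genes higher and 0.342% lower. The spike-in factors of the RSV+Vem libraries were 0.833 and 1.94.

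The effect of Vem was also measured on top of RSV. Relative to RSV, RSV+Vem lowered 18 of the 49 genes, beside 13.4% of all genes, and raised 0 (11.3% of all genes; 5 at an unadjusted p below 0.05, and 0 by DESeq2). ITGA1 had 2.39 and 2.92 CPM against 9.22 and 9.40 with RSV (-1.84, standard error 0.23). COL19A1 was lower by a log2 fold change of -1.80, LAMB1 of -1.46, ITGA2 of -1.15, LAMA1 of -1.01 and LAMC1 of -0.67. LAMA5 (0.49, standard error 0.24) and LAMB2 (0.20, standard error 0.10) were not called. Under spike-in scaling the median of all genes was -0.52. With this scaling 11 genes were called lower and 0 higher by edgeR, beside 2.87% and 0.124% of all genes.

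The difference between these effects of Vem, without and with RSV, was tested as an interaction. It was called for 10 of the 49 genes, 2 with a positive and 8 with a negative term, beside 11.8% and 10.9% of all genes. LAMB2 had the smallest p, with a Vem effect of 1.61 without RSV and 0.20 with RSV, an interaction of -1.41 (standard error 0.13, edgeR adjusted p = 2.01e-06). LAMA5 went from 2.03 to 0.49 (interaction -1.55, standard error 0.33), COL6A1 from 1.16 to 0.0004 (-1.15, standard error 0.21), COL6A2 from 0.74 to -0.03 (-0.76, standard error 0.27) and ITGA3 from 1.19 to -0.18 (-1.37, standard error 0.37). In these 5 genes the increase with Vem was smaller, or not seen, on top of RSV. RSV alone had raised ITGA3 by 1.53, COL6A2 by 1.24, COL6A1 by 0.76 and LAMB2 by 0.45 over vehicle on the log2 scale. LAMA5 was not called with RSV alone (0.38). Between RSV+Vem and Vem alone, ITGA3 (0.16) and COL6A2 (0.48) were not called. COL6A1 (-0.39), LAMB2 (-0.96) and LAMA5 (-1.16) were lower with RSV+Vem than with Vem. ITGA6 went from -1.79 to -0.82 (0.97, standard error 0.17) and LAMA3 from -0.98 to -0.20 (0.78, standard error 0.25), so their decreases were smaller on top of RSV. LAMA4 (-0.54 to -1.51), COL12A1 (-0.45 to -2.32) and ITGA7 (0.17 to -0.68) had lower values of the Vem effect with RSV than without. ITGA1, ITGA9, LAMA1, LAMB1, LAMC1 and ITGB1 were not called in the interaction, with terms of 0.61, -0.31, -0.16, -0.23, -0.02 and 0.13.

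**Figure D5:**
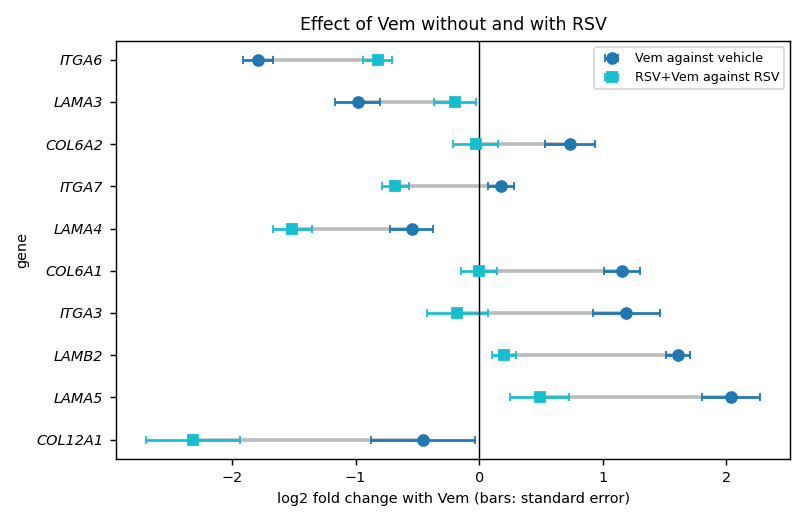
Log2 fold change with Vem (x axis, bars for the standard error) without RSV (circles, Vem against vehicle) and with RSV (squares, RSV+Vem against RSV) for the 10 genes called in the interaction (y axis). LAMA5 moved from 2.03 to 0.49 and LAMB2 from 1.61 to 0.20, while ITGA6 moved from -1.79 to -0.82.

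Some of these interactions rested on few libraries. Out of 12 fits that left out a library, the call was lost in 9 for COL6A2, in 7 for LAMA3 and in 6 for COL12A1, and DESeq2 called none of these 3. ITGA3 lost its call without RSV replicate 1 (-0.85) and LAMA4 without Vem replicate 1 (-0.70). The calls on LAMB2, LAMA5, COL6A1, ITGA6 and ITGA7 held in all 12. With spike-in scaling, edgeR called 0 of the 49 genes, beside 0.0498% of all genes with a positive term and 0 with a negative one, and the 10 terms kept their sign.

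RSV+TCDD differed from TCDD in 20 of the 49 genes, 14 higher and 6 lower, beside 18.6% and 19.1% of all genes. ITGA3 had 10.5 and 8.43 CPM against 2.03 and 1.69 with TCDD (log2 fold change 2.32, standard error 0.27), and ITGA5 5.12 and 3.72 against 0.903 and 0.515 (2.55, standard error 0.33). LAMA4 was higher by 1.41 and COL5A3 by 1.08, while LAMC1 was lower with 499 and 462 CPM against 853 and 871 (-0.84, standard error 0.09). ITGA6 had 75.1 and 76.0 CPM against 55.6 and 50.4 (0.51, standard error 0.12), but -0.18 under spike-in scaling. With this scaling the median of all genes was -0.70. It gave 3 genes called higher and 4 lower, beside 0.995% and 10.9% of all genes.

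Relative to RSV, RSV+TCDD raised 1 of the 49 genes and lowered 6, beside 3.89% and 2.28% of all genes. The raised gene was ITGA9, with 224 and 204 CPM against 131 and 146 (0.63, standard error 0.09), which was -0.38 under spike-in scaling. ITGA6 (-0.66), ITGB8 (-0.81), LAMB1 (-0.77), LAMA4 (-0.61), COL12A1 (-1.58) and COL16A1 (-1.30) were lower. Without RSV+TCDD replicate 1, 3 genes were called in place of 7. Under spike-in scaling the median of all genes was -1.02. With this scaling edgeR called 22 genes lower and 0 higher, beside 43.1% and 0.00622% of all genes. The interaction of RSV with TCDD was called by edgeR for 0 of the 49 genes in either direction, beside 0.0124% of all genes with a positive term and 0.137% with a negative one. At an unadjusted p below 0.05 there were 2 positive and 7 negative terms, and DESeq2 called 0. The conflict between 1 and 10 nM in the labels applies to these comparisons.

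The 27 genes not tested had between 0 and 72 counts over all 12 libraries together and no more than 15 in a library. The 20 collagens among them were the fibrillar chains COL1A2, COL2A1, COL3A1, COL5A1 and COL11A1, the basement membrane chains COL4A3, COL4A4, COL4A5 and COL4A6, the collagen VI chains COL6A5 and COL6A6, the short chain collagens COL8A1, COL8A2 and COL10A1, the fibril-associated COL20A1 and COL21A1, the transmembrane COL13A1 and COL23A1, and COL26A1 and COL28A1. The 7 integrins were ITGA2B, ITGA4, ITGA8, ITGB3, ITGB4, ITGB6 and ITGB7. ITGA4 and COL23A1 had no counts at all.

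Genes that act on the same matrix were counted from a list of 60, of which 49 could be tested. With Vem 19 rose and 11 fell, with TCDD 6 were called, each of them higher, and with RSV 24 rose and 6 fell. Of all tested genes, 25.5% rose and 26.9% fell with Vem, 4.72% and 2.01% with TCDD, and 20.5% and 20.2% with RSV. Among called genes of the list, the largest changes with Vem were in P4HA3, a subunit of a collagen prolyl hydroxylase (log2 fold change 1.504), SDC4, a syndecan coreceptor of integrins (1.18), LOXL1, a crosslinking enzyme (1.14), TIMP3, a protease inhibitor bound to matrix (-2.17), TNC, the matrix protein tenascin C (-1.54, with 11 and 18 counts in vehicle and 3 in each Vem library) and P4HA1, another hydroxylase subunit (-1.18). Among called genes with RSV they were in DDR1, a collagen receptor kinase (3.25), ITGAX, an integrin subunit of leukocytes (2.91), P4HA3 (2.86), PTK2, the focal adhesion kinase (-1.06), PLOD2, a lysyl hydroxylase (-0.88) and MMP2, a gelatinase (-0.70). ITGAX had 3.59 and 3.84 CPM with vehicle and 29.8 and 26.3 with RSV.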

How the data were processed

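RNA of 12 libraries was sequenced as read pairs after stranded mRNA preparation. The authors used STAR 2.4.0a for alignment to hg19 and featureCounts of Subread 1.5.0-p3 for strand-aware counting by gene symbol. The strand setting in the methods is not the usual one for this kit, so genes with exons on opposite strands of a shared stretch are uncertain. Antisense genes (890, by symbol) held 0.217% to 0.247% of the counts and 772 sense partners 3.84% to 4.54%. Raw counts were deposited, not normalized and not corrected for PCR copies, and genes of the same symbol have a single value. Control sequences, 96 in number with 92 ERCC spike-ins, held 0.0310% to 0.0936% of the counts and were left out of the tests. Genes were kept with filterByExpr by group (16080 genes), scaled with TMM factors and fitted with edgeR 4.0.16 in R 4.3.3, using a robust quasi-likelihood model with 1 term per group over the 12 libraries and Benjamini-Hochberg adjustment. The common biological coefficient of variation was 0.0915. Counts set the precision of rare genes, and 3 counts over a group were taken as the floor of a group at 0. Positions and exonic lengths are from GENCODE on GRCh37, and the release that was counted is not given in the sources used here. Promoters are from RefSeq on GRCh38.p14.

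The genes followed, the lists and the tests were chosen with earlier results of these data known. Described with values were, per comparison with vehicle and for RSV+Vem against Vem, up to 5 largest increases and decreases among called genes whose groups did not overlap and whose mean count was at least 50 in the higher group, the 5 highest levels per family in vehicle, genes called in an interaction, and ITGA1, COL4A1 and COL4A2. Other genes were named to account for the members of a group or comparison, after their values were seen. Alternatives were RLE factors, spike-in scaling, DESeq2 1.42.0, fits of only the libraries compared, a replicate block, a stricter filter (at least 10 counts in every library), no filter, and leaving out each library. Steps were tested on simulated data. Figures were drawn with matplotlib 3.10.9.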

Additional observations from a re-analysis of the deposited data

Results flagged for a closer look

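The effect of Vem differed with and without RSV, by a test of the difference itself, for 10 of the 49 tested genes, 2 with a positive and 8 with a negative term, beside 11.8% and 10.9% of all tested genes. The interaction terms (log2, edgeR) were -1.86 for COL12A1, -1.15 for COL6A1, -0.76 for COL6A2, -1.37 for ITGA3, 0.97 for ITGA6, -0.85 for ITGA7, 0.78 for LAMA3, -0.97 for LAMA4, -1.55 for LAMA5 and -1.41 for LAMB2. The 4 libraries of the effect without RSV are not those of the effect with RSV. The RSV+Vem libraries had RIN values of 8.7 and 8.6, the lowest of the 12, and the part of RNA quality in these terms was not tested.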

How the results depend on the processing

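The changes of 48 named values were recomputed under 19 alternatives, with 809 results on the same side of the threshold and in the same direction, 95 in the same direction but not called, and 2 reversed. Of the 95, 38 were under spike-in scaling, where LAMB2 and LAMC1 with TCDD reversed to -0.13 and -0.15, a scaling that shifted all genes. The calls on 32 of the 48 values held whichever library was left out. Under spike-in scaling the number of the genes called was 17 with Vem, 0 with TCDD, 3 with RSV, 8 for Vem against TCDD, 0 for RSV+Vem against Vem, 11 for RSV+Vem against RSV, 7 for RSV+TCDD against TCDD, 22 for RSV+TCDD against RSV and 0 for the interaction of RSV and Vem. In the same order, the genes called higher and lower over all 16080 were 195 and 3620, 2 and 8, 256 and 113, 355 and 1199, 334 and 55, 20 and 461, 160 and 1752, 1 and 6926, and 8 and 0. With at least 10 counts in every library, which left 28 of the genes, 12 were called with RSV and 14 for RSV+Vem against Vem. With no filter on low counts, 12 were called for RSV+TCDD against RSV and 2 for the interaction of RSV and TCDD, where the cause was not tested. Leaving out a library gave 24 to 31 genes with Vem, 2 to 9 with TCDD, 19 to 24 with RSV, 21 to 24 for Vem against TCDD, 13 to 24 for RSV+Vem against Vem, 14 to 20 for RSV+Vem against RSV, 14 to 22 for RSV+TCDD against TCDD, 3 to 8 for RSV+TCDD against RSV and 7 to 10 for the interaction of RSV and Vem. The labels do not say that a replicate number marks a shared batch, and of 15 pairs of groups, 6 had a correlation of replicate differences above 0.1 and 3 below -0.1, so the numbers were not taken to pair the samples. The 3 pairs among RSV, RSV+Vem and RSV+TCDD were at 0.241, 0.231 and 0.18. A replicate block called 32 genes with Vem, 8 with TCDD and 24 with RSV, and changed no call on the 48 values. For RSV+Vem against RSV the block called 1 gene higher, COL11A2 (0.52, edgeR adjusted p = 0.0469), and 18 lower. Counts limit the rarest genes, and with 2 libraries per group the spread rests on the model.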

Other observations

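FN1, which encodes the matrix protein fibronectin, a ligand of the receptor with ITGA5, is not among the genes followed and was picked out after its values were seen. It had 1110 and 956 CPM in the vehicle libraries, 625 and 565 with Vem and 2721 and 2544 with TCDD. The log2 fold change was -0.80 with Vem (standard error 0.11) and 1.35 with TCDD (standard error 0.11, edgeR adjusted p = 1.44e-06). RSV+TCDD gave 1073 and 973 CPM, lower than TCDD alone by a log2 fold change of -1.36, and RSV+Vem gave 307 and 374 CPM. ITGAV, an integrin subunit outside the symbol rule, was at -0.79 with Vem (standard error 0.13).

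ITGA9 and ITGA1 gave a ratio per length, also formed after the values were seen, of 96.4 ± 22.3 (SD, n = 2) in vehicle, 782 ± 29 with Vem, 83.6 ± 12.6 with TCDD, 33.3 ± 2.1 with RSV, 141 ± 13 with RSV+Vem and 67.2 ± 15.3 with RSV+TCDD. The ratio of ITGA3 to ITGA6 was 0.0127 ± 0.0002 in vehicle, 0.1004 ± 0.0046 with Vem, 0.0239 ± 0.0015 with TCDD, 0.0392 ± 0.0220 with RSV, 0.0584 ± 0.0133 with RSV+Vem and 0.0856 ± 0.0142 with RSV+TCDD.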
